A study of Mus musculus with 10 samples.

Results

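Solute carriers are membrane proteins that move nutrients, metabolites, metals and ions into and out of the cell and its organelles. They were described here in CD4+ T cells of DBA/1 mice through 193 genes, out of 326 solute carrier genes with a probe set and 11037 genes tested in all. A member is a gene whose symbol is Slc followed by a digit, with the glucose carriers Slc2a1 and Slc2a3 left out. The members were chosen by measured values: the brightest probe set of a gene, by its mean over the 10 arrays, stood for it, and the gene was kept when at least 2 arrays lay above their own median of all probe sets. That choice used level and no contrast between groups, except where all arrays above the median were of the same kind of cell. Slc6a13 and Slc6a7 passed through their CD25+ arrays alone and so had to differ there. Slc22a13 and Slc43a1 passed through CD4+ arrays alone, so their being lower in both subsets is a description. Other members above the median on few arrays may have passed in this way. Slc22a12, with a mean level of 4.70 and a difference of -0.70 from CD4+ cells in both subsets, is likely among them. The other 133 genes were set aside as dim. Of the 193, 167 lay above the median on all 10 arrays and 17 on 2 to 5 arrays.

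At the edge of the rule, Slc22a13 passed with 2 arrays, at 4.49, 4.52 and 4.46 in CD49b+ cells, 4.26, 4.36 and 4.19 in CD25+ cells, 4.84 and 4.81 in CD4+ cells of injected mice and 4.84 and 4.77 in CD4+ cells of naive mice. Slc11a1, Slc13a4, Slc15a2, Slc6a3 and Slc9b2 lay just outside it with 1 array each, and their group means ranged between 3.95 and 4.79. Slc2a4rg-ps, Slc9a3r1 and Slc9a3r2 carry the symbol by name and are not carriers.

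The arrays came from 4 groups. CD49b+ cells (n = 3), CD25+ cells (n = 3) and CD4+ cells (n = 2) were taken from the spleens of mice that had received 500000 immature dendritic cells in the peritoneum on each of 3 occasions, 7, 5 and 3 days before they were killed, and CD4+ cells (n = 2) were also taken from naive mice. The series asks how CD49b+ regulatory T cells, induced by this dendritic cell protocol, compare with conventional CD25+ regulatory T cells, and uses the CD4+ cells of both kinds of mice to see what the protocol itself changes. Cells of several mice were pooled before sorting, and nothing in the labels says that replicates came from separate pools, so the p-values measure only how far these samples spread, which may be technical. The labels also do not say whether CD49b+ or CD25+ cells had been removed from the CD4+ groups. Values are log2 levels deposited by the authors, so that 1 unit is a 2-fold difference, and a level of 1 gene is not set against that of another, since probe sets bind with different strength. Differences are given as log2 ± SE from limma, p-values are adjusted over all genes tested (Benjamini-Hochberg), and "called" means an adjusted p below 0.05.

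Resting T cells take up few nutrients and depend on oxidative metabolism. On activation they place amino acid, glucose, lactate and iron carriers on the surface under the control of mTORC1 and Myc, and regulatory T cells are known to lean on lipid oxidation and to differ from effector cells in amino acid uptake. Zinc is moved by 2 opposed families: Slc39 (ZIP) proteins bring it into the cytosol from outside or from organelles, and Slc30 (ZnT) proteins take it out of the cytosol. Slc25 proteins serve the inner mitochondrial membrane, and Slc35 proteins bring nucleotide sugars into the Golgi and endoplasmic reticulum, where glycans are built.

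The sorted cells were checked by their markers. Il2ra, which encodes CD25, averaged 8.83 in CD25+ cells, 6.29 in CD49b+ cells and 4.17 in both CD4+ groups. Itga2, which encodes CD49b, differed between CD49b+ and CD4+ cells of injected mice by -0.05 ± 0.11 (adjusted p = 0.717) and was not called there. It was called lower in CD25+ than in CD4+ cells, and higher in CD49b+ than in CD25+ cells. The summed level of the natural killer cell list, of which 6 of 10 genes were tested, lay between 10.18 and 10.68 in CD49b+ cells, between 8.33 and 8.70 in CD25+ cells and between 8.20 and 8.37 in CD4+ cells of injected mice. Of the 6 genes, 4 were called higher and 2 lower in CD49b+, and 2 and 2 in CD25+, than in CD4+ cells. Over all genes tested the shares were 29.9% and 23.5% in CD49b+ cells and 20.8% and 17.8% in CD25+ cells. On that list Gzmb was higher by 5.22 ± 0.21 and Nkg7 by 2.78 ± 0.39 in CD49b+ than in CD4+ cells, while Prf1 was lower (-1.10). The other probe set of Prf1 read -0.13 and was not called (adjusted p = 0.277). Of the 9 genes of the list with a probe set, 5 lay above the array median on all CD49b+ arrays. Of 10 myeloid and dendritic cell markers tested, 2 were higher and 6 lower in CD49b+ than in CD4+ cells (20% and 60%). In CD25+ cells 3 and 4 were (30% and 40%), to be read beside the same shares of all genes. The summed levels of these markers were 9.89 to 10.15 in CD49b+ cells, 9.87 to 10.32 in CD25+ cells and 9.64 to 9.85 in CD4+ cells of injected mice. The 3' to 5' difference of Gapdh, a sign of RNA quality, spanned 0.23 to 0.69 in CD49b+ cells, 0.37 to 0.60 in CD25+ cells, 0.13 to 0.26 in CD4+ cells of injected mice and -0.01 to 0.06 in those of naive mice. The part of these features in the differences that follow was not tested. In these bulk samples, fewer cells of a type and less RNA per cell cannot be told apart.

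In CD49b+ against CD4+ cells of injected mice, 65 of the 193 members were called higher (33.7%) and 48 lower (24.9%), against 29.9% and 23.5% of all genes tested. In CD25+ cells, 35 were higher (18.1%) than in CD4+ cells and 49 lower (25.4%), against 20.8% and 17.8% of all genes. Between the subsets, 42 were higher in CD49b+ than in CD25+ cells (21.8%) and 23 lower (11.9%), against 17.5% and 12.4%. The carriers as a whole were called at shares near the background, except for the larger share lower in CD25+ cells. These shares of all genes are also the background for the counts by class and list below. The 2 subsets were set against the same 2 CD4+ arrays, so their counts against CD4+ cells are not independent. Among the 167 members above the median on all arrays, 60 were higher and 39 lower in CD49b+ cells (35.9% and 23.4%, against 31.4% and 20.7% of all such genes) and 28 and 41 in CD25+ cells (16.8% and 24.6%, against 20.6% and 14.5%). When CD49b+ were set against CD25+ cells, 39 were higher and 18 lower (23.4% and 10.8%, against 18.3% and 12.4%).

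The balance of higher and lower calls depended on the level of the genes and on the scaling of the arrays. The median of all probe sets was 4.61 to 4.62 on CD49b+ arrays, 4.64 to 4.65 on CD25+ arrays and 4.80 to 4.81 on CD4+ arrays of injected mice. Of the 82 members with a mean level under 6, 28 were lower in CD49b+ and 30 in CD25+ cells than in CD4+ cells (34.1% and 36.6%), and the shares over all genes of that level were 36.7% and 33.2%. With the arrays centred on their medians, which moves the median difference of all genes to 0.22 in CD49b+ and 0.18 in CD25+ cells, the members split 83 higher and 22 lower in CD49b+ cells and 67 higher and 24 lower in CD25+ cells. Higher calls then made up 79% and 73.6% of the calls, in place of 57.5% and 41.7%. All 11037 genes tilted the same way under that centring, with 4895 higher and 1357 lower in CD49b+ cells and 3961 and 1076 in CD25+ cells. Among the 111 members with a mean of at least 6, the deposited values gave 51 higher and 20 lower in CD49b+ cells (45.9% and 18%, against 36.9% and 16.1% of all genes of that level) and 24 and 19 in CD25+ cells (21.6% and 17.1%, against 24.3% and 9.21%).

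**Figure D1:**
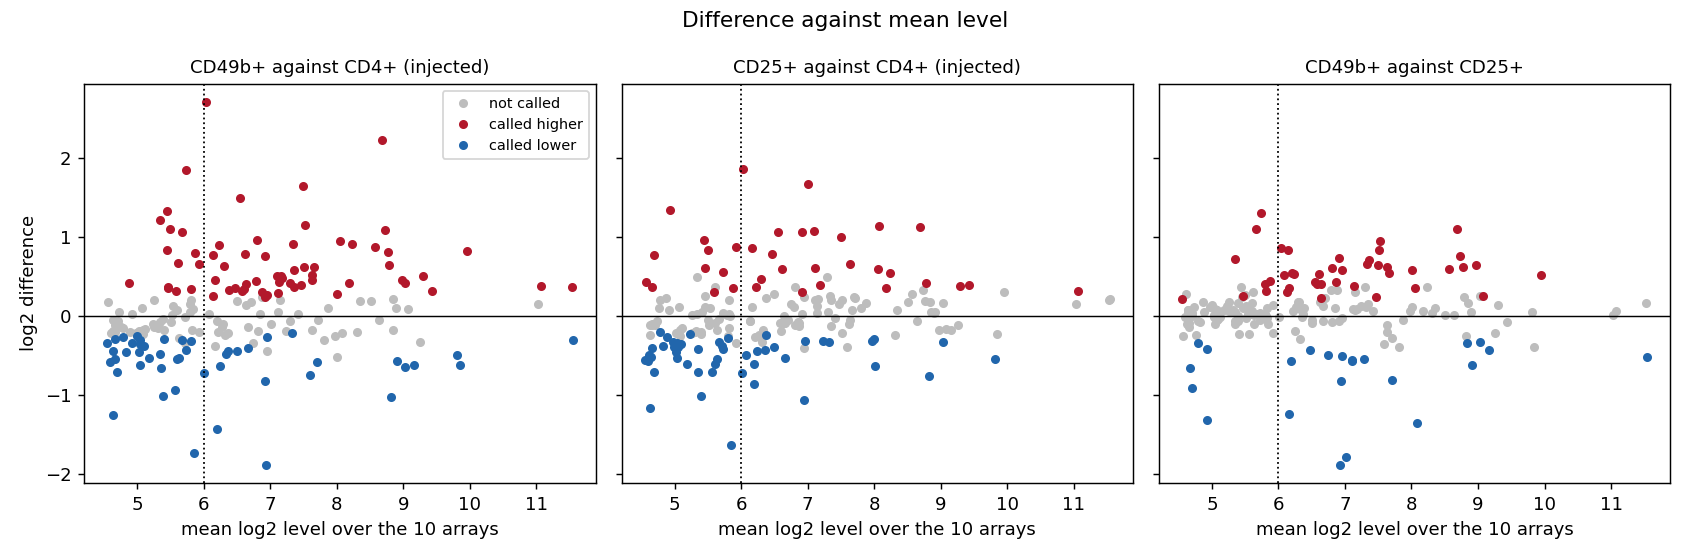
Log2 difference (vertical axis) against mean log2 level over the 10 arrays (horizontal axis) for the 193 members in the 3 comparisons among injected mice; each point is a gene, red where called higher, blue where called lower and grey where not called, and the dotted line stands at a level of 6. Of the 82 members left of that line, 28 are blue in the first panel and 30 in the second.

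Differences of at least 2-fold were fewer. In CD49b+ against CD4+ cells, 11 members were called and at least 2-fold higher and 6 lower (all genes 7.05% and 2.61%). For CD25+ over CD4+ cells the counts were 8 and 4 (all genes 5.08% and 1.36%). Between the subsets, 3 were at least 2-fold higher and 5 lower in CD49b+ cells (all genes 2.51% and 2.58%).

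The 193 members fell into groups by their calls among injected mice. In both subsets 26 were higher than in CD4+ cells and 36 were lower (13.5% and 18.7% of members, against 15.5% and 14% of all genes). The 36 include members that passed the filter through CD4+ arrays alone, such as Slc22a13 and Slc43a1. For these the filter favoured being lower, so that count is in part a description. A further 26 were higher in CD49b+ cells than in CD4+ and also than in CD25+ cells (13.5%, against 8.35% of all genes), and 6 were higher in CD25+ cells than in both others (3.11%, against 2.88%). Of the 26 higher in both subsets, 8 stood higher in CD49b+ than in CD25+ cells, 2 lower and 16 were not called between them. In 55 members none of the 3 comparisons among injected mice gave a call (28.5%, against 35.5% of all genes). Over the alternatives, the group higher in both subsets ranged between 14 (without CD4+ injected replicate 1) and 52 (arrays centred), and the group lower in both between 10 (70th percentile filter) and 45 (mean of the probe sets), so the balance between them depends on the scaling.

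**Figure D2:**
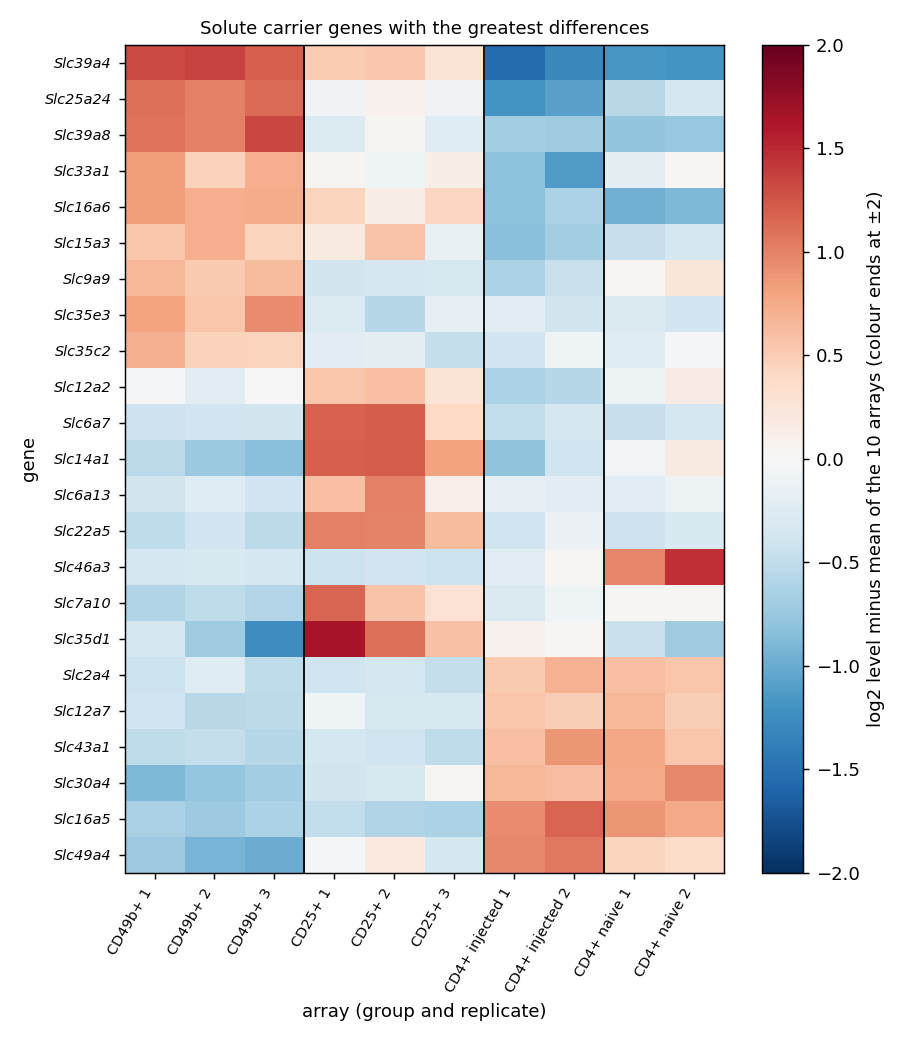
Log2 level of the 23 members with the highest and lowest differences in each comparison, minus the gene's mean over the 10 arrays (colour), by array (columns) and ordered by the difference between CD49b+ and CD4+ cells of injected mice (rows). Slc39a4, Slc25a24 and Slc39a8 stand high on the 3 CD49b+ arrays, Slc14a1, Slc22a5 and Slc6a7 on the 3 CD25+ arrays, and Slc16a5 and Slc43a1 on the 4 CD4+ arrays.

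Zinc importers held the greatest difference of the family. Slc39a4, a zinc importer of the plasma membrane whose loss causes zinc deficiency in humans, stood at 7.36, 7.38 and 7.23 in CD49b+ cells, 6.54, 6.58 and 6.30 in CD25+ cells, 4.49 and 4.75 in CD4+ cells of injected mice and 4.87 and 4.84 in those of naive mice. The groups of injected mice did not overlap, and the CD4+ arrays of injected mice lay under the median of their array. Against CD4+ cells, Slc39a4 was 6.53-fold higher in CD49b+ cells (2.71 ± 0.11, adjusted p = 1.92e-07) and 3.62-fold higher in CD25+ cells (1.85 ± 0.11, adjusted p = 2.59e-06), and CD49b+ exceeded CD25+ cells (0.85 ± 0.10, adjusted p = 0.000173). With the CD4+ level that low, these folds over CD4+ cells may be understated.

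Slc39a8, an importer of zinc and manganese known from human T cells to release zinc from lysosomes, stood at 6.83, 6.74 and 7.07 in CD49b+ cells, 5.47, 5.79 and 5.49 in CD25+ cells, 5.03 and 5.02 in CD4+ cells of injected mice and 4.94 and 4.99 in those of naive mice. It was thus high on the CD49b+ arrays, while CD25+ cells lay closer to CD4+ cells. The difference from CD4+ cells was 1.85 ± 0.12 in CD49b+ cells (adjusted p = 2.88e-06) and 0.55 ± 0.12 in CD25+ cells (adjusted p = 0.0061), and that between the subsets 1.30 ± 0.11 (adjusted p = 2.28e-05). Slc30a4, a zinc exporter of intracellular vesicles, ran the other way, with 5.30, 5.42 and 5.50 in CD49b+ cells, 5.83, 5.87 and 6.23 in CD25+ cells, 6.86 and 6.82 in CD4+ cells of injected mice and 6.96 and 7.16 in those of naive mice. Its difference from CD4+ cells was -1.43 ± 0.13 in CD49b+ (adjusted p = 1.84e-05) and -0.86 ± 0.13 in CD25+ cells (adjusted p = 0.000643), and CD49b+ cells were lower than CD25+ cells (-0.57 ± 0.11, adjusted p = 0.00431).

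**Figure D3:**
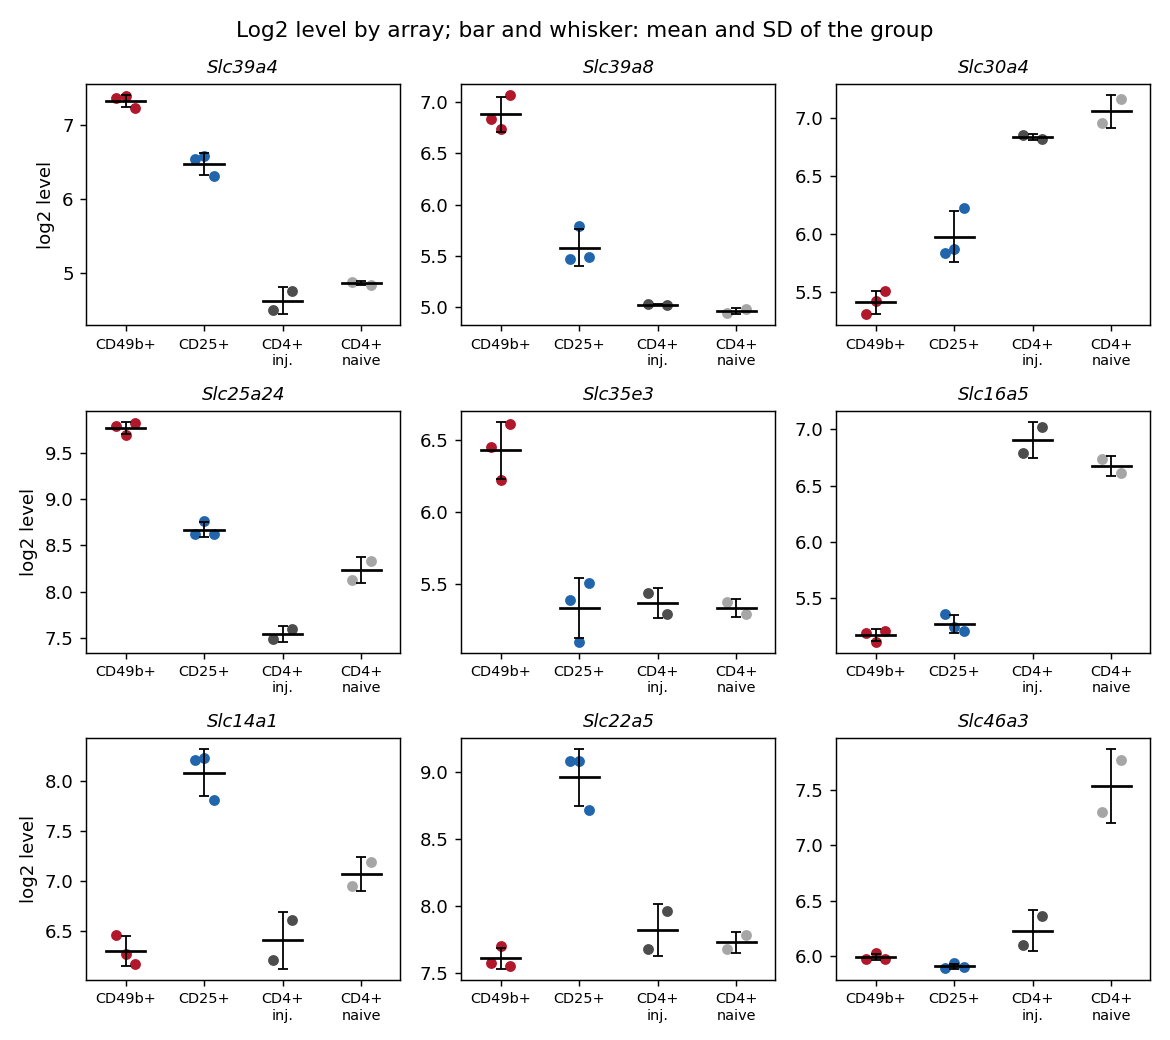
Log2 level (vertical axis, its own range in each panel and not starting at 0) of 9 members on every array, by group (horizontal axis); points are arrays, and the bar and whisker are the mean and SD of the group (n = 3, 3, 2 and 2). Slc39a4, Slc39a8 and Slc25a24 run highest in CD49b+ cells, Slc14a1 and Slc22a5 in CD25+ cells, Slc30a4 and Slc16a5 in the CD4+ groups, and Slc46a3 in CD4+ cells of naive mice.

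Over the 11 Slc39 members, 6 were higher and 1 lower in CD49b+ than in CD4+ cells, 3 and 1 in CD25+ than in CD4+ cells, and 6 and 1 in CD49b+ than in CD25+ cells. The other Slc39 genes higher in CD49b+ than in CD4+ cells were Slc39a6 (1.09 ± 0.13, adjusted p = 0.000137), Slc39a9 (0.78 ± 0.11), Slc39a11 (0.42 ± 0.12) and Slc39a1 (0.39 ± 0.08), and the 1 lower was Slc39a13 (-0.93 ± 0.11, adjusted p = 9.91e-05). Slc39a6, a T cell zinc importer, read 9.47, 9.18 and 9.45 in CD49b+ cells, 8.46, 8.59 and 8.77 in CD25+ cells and 8.39 and 8.16 in CD4+ cells of injected mice, but its other tested probe set read -0.33 between CD49b+ and CD4+ cells and was not called, so the gene is uncertain. Of the 7 Slc30 members, 0 were higher and 2 lower in CD49b+ than in CD4+ cells by limma, the second being Slc30a7 (-0.75 ± 0.22, adjusted p = 0.0178). Slc30a1, the exporter of the plasma membrane, was not called on its brightest probe set, with 6.95, 6.36 and 6.93 in CD49b+ cells, 6.89, 6.50 and 6.93 in CD25+ cells and 7.56 and 6.81 in CD4+ cells of injected mice. Its other probe set was called lower in CD49b+ (-0.60, adjusted p = 0.0158) and CD25+ cells (-0.50, adjusted p = 0.0471), so the gene is uncertain. When the arrays were centred, the counts in CD49b+ against CD4+ cells were 7 and 1 for Slc39 and 1 and 1 for Slc30.

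The promoters of 3 zinc carriers are shown because they stand for an importer that was higher in CD49b+ cells, an exporter that was lower and an exporter whose probe sets disagreed, and because zinc genes are known targets of the metal-sensing factor Mtf1, whose metal response core was searched as TGCACNC or TGCGCNC on both strands. Each run is the 250 bases before the start of the gene in RefSeq, build GRCm38.p6, read 5′ to 3′ on the strand of the gene, with matches in capitals. Slc39a8 lies on the plus strand at chr3:135825029-135825278, Slc30a4 on the minus strand at chr2:122702664-122702913 and Slc30a1 on the plus strand at chr1:191906531-191906780.
Slc39a8: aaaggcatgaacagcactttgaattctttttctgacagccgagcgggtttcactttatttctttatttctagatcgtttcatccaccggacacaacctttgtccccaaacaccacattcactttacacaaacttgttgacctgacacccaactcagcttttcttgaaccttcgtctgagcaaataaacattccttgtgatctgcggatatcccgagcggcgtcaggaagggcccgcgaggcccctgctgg
Slc30a4: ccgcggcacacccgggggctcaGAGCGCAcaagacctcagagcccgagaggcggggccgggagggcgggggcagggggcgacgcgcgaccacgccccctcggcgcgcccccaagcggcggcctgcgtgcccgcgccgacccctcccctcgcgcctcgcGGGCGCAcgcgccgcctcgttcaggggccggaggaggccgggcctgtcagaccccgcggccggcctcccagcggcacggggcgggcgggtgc
Slc30a1: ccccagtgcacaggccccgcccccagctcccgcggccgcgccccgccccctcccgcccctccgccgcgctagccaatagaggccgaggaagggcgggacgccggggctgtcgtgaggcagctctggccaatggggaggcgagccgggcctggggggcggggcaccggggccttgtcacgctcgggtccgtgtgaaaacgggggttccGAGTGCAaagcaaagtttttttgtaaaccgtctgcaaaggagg
The core had 0 matches in the window of Slc39a8, 2 in that of Slc30a4 and 1 in that of Slc30a1. It was found in 6 of 15 zinc carriers with a window and in 28.28% of the 145 members with a promoter entry, against 21.27% of all 27025 promoters. A match of these letters is a description and no site.

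Other metal carriers moved less. Slc48a1, which brings heme out of endosomes and lysosomes, was higher in CD49b+ (0.63 ± 0.10, adjusted p = 0.000525) and CD25+ cells (0.46 ± 0.10, adjusted p = 0.00479) than in CD4+ cells. Slc40a1, the iron exporter ferroportin, was lower in both (-0.54 and -0.60). Slc41a1, a magnesium carrier, was lower in CD49b+ than in CD25+ cells (-0.81 ± 0.10, adjusted p = 0.000235), with 7.37, 7.08 and 7.10 in CD49b+ cells against 8.14, 7.89 and 7.97 in CD25+ cells. Slc31a1, the copper importer, was lower in CD25+ cells than in CD49b+ and CD4+ cells, at 5.68, 5.98 and 5.63 in CD25+ cells, 6.29, 6.37 and 6.26 in CD49b+ cells and 6.40 and 6.35 in CD4+ cells of injected mice. Of 10 other genes of zinc, copper and iron handling, 2 were higher and 4 lower in CD49b+, and 2 and 2 in CD25+, than in CD4+ cells. The zinc-binding metallothionein gene Mt1 read 6.55, 8.20 and 6.03 in CD49b+ cells, 5.57, 6.50 and 5.42 in CD25+ cells and 4.89 and 5.17 in CD4+ cells of injected mice. Its difference in CD49b+ cells was 1.89 ± 0.54 (adjusted p = 0.0142), with replicate 2 the highest array in each subset, and it was not called in CD25+ cells (0.80 ± 0.54, adjusted p = 0.265). Mtf1 itself was not called in either subset (-0.08 ± 0.09 in CD49b+ and -0.16 ± 0.09 in CD25+ cells). Tfrc, the transferrin receptor for iron uptake, was higher in CD25+ cells (0.62 ± 0.14, adjusted p = 0.00677) and lower in CD49b+ cells (-0.49 ± 0.14, adjusted p = 0.0157) than in CD4+ cells. Its other tested, dimmer probe set was called in neither comparison (0.45, adjusted p = 0.0872, and 0.06, adjusted p = 0.797), so the direction in CD49b+ cells is uncertain.

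Mitochondrial carriers made up 35 members. Of these, 16 were higher and 4 lower in CD49b+ than in CD4+ cells (45.7% and 11.4%), 7 and 6 in CD25+ than in CD4+ cells, and 9 and 2 in CD49b+ than in CD25+ cells. Without CD4+ injected replicate 1, 11 were higher in CD49b+ and 3 in CD25+ cells than in CD4+ cells, and with centred arrays 25 and 18. Slc25a24, which exchanges ATP-magnesium for phosphate and responds to calcium, stood at 9.79, 9.69 and 9.82 in CD49b+ cells, 8.62, 8.76 and 8.62 in CD25+ cells, 7.49 and 7.60 in CD4+ cells of injected mice and 8.13 and 8.33 in those of naive mice. The 4 groups did not overlap. It was higher by 2.22 ± 0.09 in CD49b+ (4.66-fold, adjusted p = 2.05e-07) and by 1.12 ± 0.09 in CD25+ cells (adjusted p = 1.97e-05) than in CD4+ cells of injected mice, and its other probe set read 2.34 and 0.90, both called.

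Carriers of fatty acid oxidation, aspartate and adenine nucleotides were among the 9 higher in CD49b+ than in CD25+ cells. Slc25a20, which brings acylcarnitines into mitochondria, stood at 9.31, 9.29 and 9.31 in CD49b+ cells, 8.57, 8.74 and 8.74 in CD25+ cells and 8.37 and 8.61 in CD4+ cells of injected mice. CD49b+ cells exceeded CD4+ cells by 0.81 ± 0.09 (adjusted p = 7.89e-05) and CD25+ cells by 0.62 ± 0.08 (adjusted p = 0.000395). Slc25a12, the aspartate-glutamate carrier of the malate-aspartate shuttle, gave 9.37, 9.30 and 9.40 in CD49b+ cells, 8.72, 8.69 and 8.74 in CD25+ cells and 8.82 and 8.97 in CD4+ cells, with a difference of 0.64 ± 0.07 between the subsets (adjusted p = 0.000125). Slc25a4, an ADP/ATP exchanger, was higher in CD49b+ cells than in CD4+ (0.82 ± 0.14) and CD25+ cells (0.52 ± 0.13), the second of which was not called with the mean of its probe sets (0.23, adjusted p = 0.0643).

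The pyrimidine nucleotide carriers differed from each other. Slc25a33 was higher in CD49b+ (0.90 ± 0.12, adjusted p = 0.000178) and CD25+ cells (0.37 ± 0.12, adjusted p = 0.0309) than in CD4+ cells. Slc25a36 was lower in CD49b+ cells, by a log2 difference of -0.57 ± 0.10 from CD4+ cells (adjusted p = 0.000926) and of -0.62 ± 0.09 from CD25+ cells (adjusted p = 0.000554), with 8.59, 8.35 and 8.44 in CD49b+ cells, 9.16, 9.10 and 8.99 in CD25+ cells and 9.11 and 8.96 in CD4+ cells. The glutathione carriers Slc25a39 (0.51 and 0.38) and Slc25a40 (0.48 and 0.39) and the citrate carrier Slc25a1 (0.24 and 0.30) were called higher in both CD49b+ and CD25+ cells. Slc25a44, a carrier of branched-chain amino acids, was lower in CD25+ than in CD4+ (-0.49 ± 0.09) and than in CD49b+ cells. The phosphate carrier Slc25a3 was not called in any of the 3 comparisons. Among relatives named without Slc, Mtch1, of the outer mitochondrial membrane, was higher by 1.69 ± 0.09 in CD49b+ and by 0.64 ± 0.09 in CD25+ than in CD4+ cells. Of the 8 such relatives tested, 3 were higher and 1 lower in CD49b+, and 1 and 1 in CD25+ cells.

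The class of nucleotide sugar and acetyl-CoA carriers had the highest share of higher calls in CD49b+ cells among the classes of at least 8 members. Of its 22 members, 15 were higher and 3 lower in CD49b+ than in CD4+ cells (68.2% and 13.6%, median 0.36), 5 and 3 in CD25+ than in CD4+ cells (22.7% and 13.6%, median 0.04), and 9 and 2 in CD49b+ than in CD25+ cells (40.9% and 9.09%). The count of 15 ranged between 10 (without CD4+ injected replicate 1) and 16 over the alternatives, and the count of 9 between 7 and 10. The 5 higher in CD25+ cells were 3 without either CD4+ injected array, and 10, with 0 lower and a median of 0.20, with centred arrays. Slc33a1, which brings acetyl-CoA into the endoplasmic reticulum, stood at 8.34, 7.95 and 8.22 in CD49b+ cells, 7.55, 7.41 and 7.61 in CD25+ cells, 6.68 and 6.37 in CD4+ cells of injected mice and 7.31 and 7.54 in those of naive mice. It was higher by 1.64 ± 0.14 in CD49b+ (adjusted p = 1.34e-05) and by 1.00 ± 0.14 in CD25+ cells (adjusted p = 0.000475) than in CD4+ cells of injected mice. The naive CD4+ arrays lay within the span of the CD25+ arrays or just under it.

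**Figure D4:**
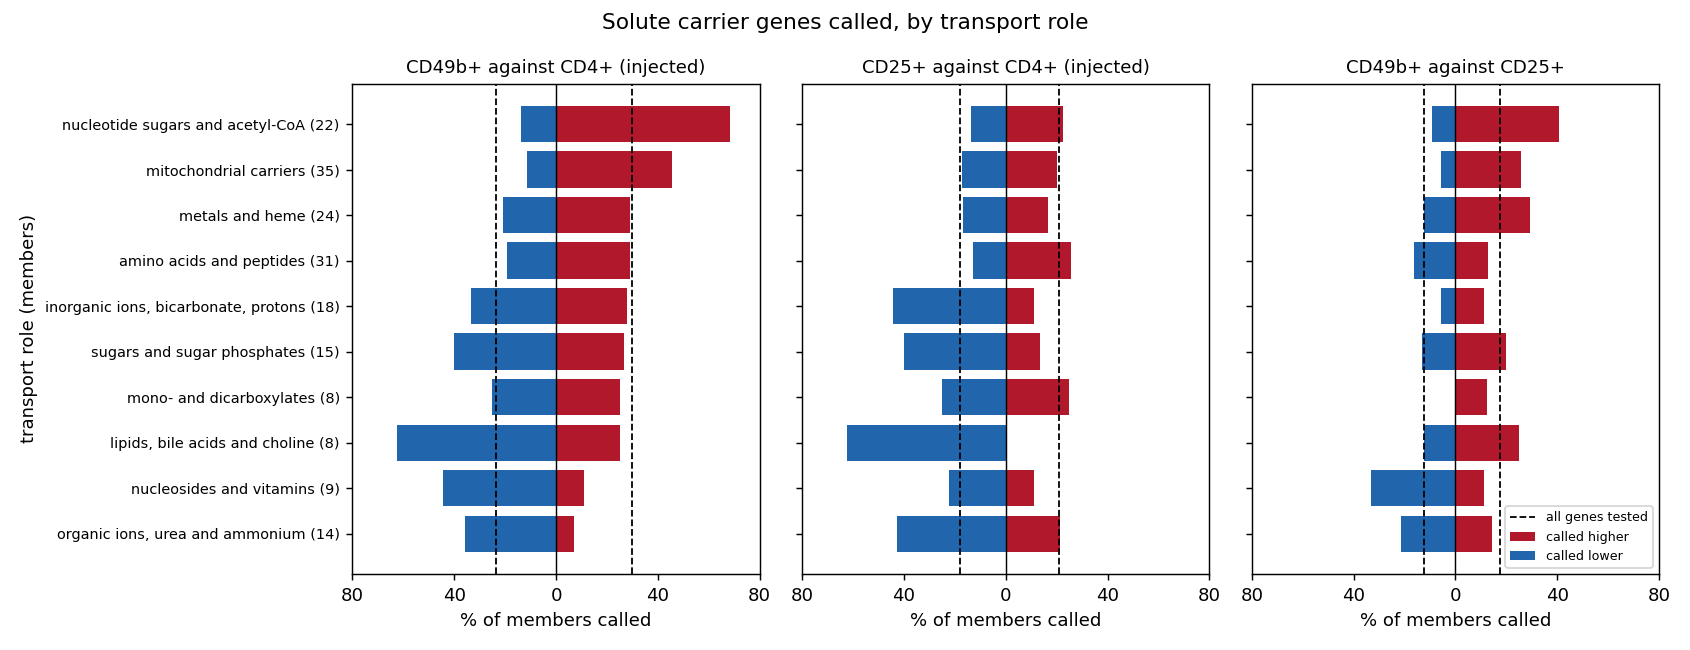
Percent of members called higher (right, red) and lower (left, blue) in each transport role with at least 8 members, with the number of members in brackets; dashed lines give the shares of all 11037 genes tested. The top bar, nucleotide sugars and acetyl-CoA, reaches 68.2% in CD49b+ against CD4+ cells, 22.7% for CD25+ over CD4+ cells and 40.9% for CD49b+ over CD25+ cells.

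Several nucleotide sugar carriers were higher in CD49b+ cells than in both other groups of injected mice. Slc35e3, whose substrate is not established, read 6.45, 6.22 and 6.61 in CD49b+ cells, 5.39, 5.10 and 5.50 in CD25+ cells, 5.44 and 5.29 in CD4+ cells of injected mice and 5.38 and 5.29 in those of naive mice, so that the CD49b+ arrays stood alone. It was higher by 1.06 ± 0.14 than in CD4+ (adjusted p = 0.000215) and by 1.10 ± 0.13 than in CD25+ cells (adjusted p = 0.00016). Slc35c1, the GDP-fucose carrier of the Golgi, was higher by 0.96 ± 0.17 and 0.60 ± 0.15, and Slc35c2, tied to fucosylation of Notch, by 0.77 ± 0.14 and 0.83 ± 0.12. Slc35b1, which supplies ATP to the endoplasmic reticulum, was higher by 0.88 ± 0.13 and 0.60 ± 0.12, Slc35d2 by 0.62 ± 0.11 and 0.83 ± 0.10, and Slc35a2, the UDP-galactose carrier, by 0.34 ± 0.08 and 0.31 ± 0.07. Slc35a3, a carrier of UDP-N-acetylglucosamine, was higher in both subsets than in CD4+ cells, by 0.95 ± 0.11 in CD49b+ and 0.59 ± 0.11 in CD25+ cells, and so was Slc35f2 (1.10 ± 0.12 and 0.84 ± 0.12). Slc35b3, a carrier of the sulphate donor PAPS, was lower in both (-0.65 ± 0.11 and -0.32 ± 0.11), whereas its partner in that role, Slc35b2, was higher in CD49b+ cells (0.30 ± 0.08, adjusted p = 0.0141).

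Slc35d1, a carrier of UDP-glucuronic acid, differed by probe set. The chosen probe set stood at 6.57, 6.22 and 5.67 in CD49b+ cells, 8.57, 8.03 and 7.51 in CD25+ cells and 7.01 and 6.94 in CD4+ cells of injected mice. It was higher in CD25+ (1.06 ± 0.30, adjusted p = 0.0198) and lower in CD49b+ cells (-0.82 ± 0.30, adjusted p = 0.0431) than in CD4+ cells. The other tested probe set read 2.87 and 0.95 in those comparisons, both called, so the direction in CD49b+ against CD4+ cells is not settled. Both probe sets were lower in CD49b+ than in CD25+ cells (-1.88 and -1.92).

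Amino acid and peptide carriers numbered 31, of which 9 were higher and 6 lower in CD49b+ than in CD4+ cells (29% and 19.4%, all genes 29.9% and 23.5%). In CD25+ against CD4+ cells 8 and 4 were (25.8% and 12.9%, all genes 20.8% and 17.8%). In CD49b+ against CD25+ cells the counts were 4 and 5 (12.9% and 16.1%, all genes 17.5% and 12.4%). With centred arrays the counts were 10 and 1 in CD49b+ and 8 and 1 in CD25+ cells, and without CD4+ injected replicate 1 or 2 those in CD25+ cells were 4 and 2 or 5 and 1. Of 26 carriers known from T cells, across all roles, 9 were higher and 8 lower in CD49b+ than in CD4+ cells (34.6% and 30.8%), and 5 and 6 in CD25+ than in CD4+ cells (19.2% and 23.1%). The members that follow are 4 of those without a call. Slc7a5, the large neutral amino acid carrier, read 7.47, 7.68 and 7.59 in CD49b+ cells, 7.66, 8.32 and 7.95 in CD25+ cells and 7.66 and 8.10 in CD4+ cells of injected mice, and its groups overlapped. Slc3a2, its partner chain, read 9.16, 9.59 and 8.70 in CD49b+ cells, 9.35, 9.76 and 8.98 in CD25+ cells and 9.25 and 9.70 in CD4+ cells, with differences of -0.33 ± 0.27 and -0.12 ± 0.27. Slc7a1, for arginine, differed by 0.10 ± 0.11 and 0.04 ± 0.11, and Slc6a6, for taurine, by 0.19 ± 0.19 and 0.18 ± 0.19, with no call in any of the 4 comparisons for these 4 genes on their brightest probe sets. A further probe set of Slc6a6 was called lower in CD25+ cells (-0.74, adjusted p = 0.0169) and read -0.52 in CD49b+ cells (adjusted p = 0.0517), so that gene is uncertain. A p that misses the threshold with 2 or 3 arrays a group does not show that the levels are alike.

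Glutamine carriers gave calls that depended on the array, the scaling or the probe set. Slc38a1 stood at 9.16, 8.85 and 9.23 in CD49b+ cells, 8.93, 8.65 and 8.96 in CD25+ cells and 8.53 and 8.33 in CD4+ cells of injected mice. It was called higher in CD49b+ (0.65 ± 0.14, adjusted p = 0.00324) and CD25+ cells (0.42 ± 0.14, adjusted p = 0.0377), the second lost without either CD4+ injected array (adjusted p = 0.0595 for replicate 1 and 0.215 for replicate 2) or without CD25+ replicates 1 or 3 (0.0938 and 0.0983). Slc1a5 was higher by 0.41 ± 0.09 and 0.36 ± 0.09, but with the mean of its probe sets the values were -0.05 (adjusted p = 0.796) and 0.07 (adjusted p = 0.731). Slc38a2 was lower in CD49b+ cells (-0.62 ± 0.19, adjusted p = 0.0212). The call was lost with centred arrays (-0.43, adjusted p = 0.0825) and with the mean of its probe sets (-0.49, adjusted p = 0.105). It was also lost without CD49b+ replicate 3 (adjusted p = 0.0584) or CD4+ injected replicate 2 (-0.47). Its other tested probe sets read -0.48 and -0.37 and were not called. Of 6 genes listed for glutamine and glutamate metabolism, 5 were higher and 0 lower in CD49b+ than in CD4+ cells by limma. At an unadjusted p under 0.05 the counts were also 5 and 0. In CD25+ cells 0 were called, and 2 were higher at an unadjusted p under 0.05. The greatest differences in CD49b+ cells were those of Psph (1.00 ± 0.10), Gclm of glutathione synthesis (0.85 ± 0.22) and Glud1, glutamate dehydrogenase (0.63 ± 0.08). Psph makes serine and itself uses neither glutamine nor glutamate.

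In CD49b+ against CD4+ cells, Slc15a3 and Slc43a1 differed most of the class, while in CD25+ cells Slc6a7, described with the carriers high there, did. Slc15a3, which moves histidine and peptides out of lysosomes, stood at 5.999, 6.17 and 5.89 in CD49b+ cells, 5.62, 6.01 and 5.30 in CD25+ cells, 4.61 and 4.75 in CD4+ cells of injected mice and 4.98 and 5.09 in those of naive mice. It was higher by 1.33 ± 0.18 in CD49b+ (adjusted p = 0.000214) and by 0.96 ± 0.18 in CD25+ cells (adjusted p = 0.00227) than in CD4+ cells of injected mice. Its relative Slc15a4 was higher in CD49b+ cells than in CD4+ (0.46 ± 0.13) and CD25+ cells (0.35 ± 0.12). The Slc43 carriers of large neutral amino acids split: Slc43a1 read 4.12, 4.16 and 4.06 in CD49b+ cells, 4.28, 4.24 and 4.12 in CD25+ cells and 5.23 and 5.51 in CD4+ cells, and was lower in both (-1.26 and -1.16, adjusted p = 1.37e-05 and 3.96e-05). Both subsets lay under the median of their arrays there, so the fall may be understated. Slc43a1 thus passed the filter through CD4+ arrays alone, and its difference is a description. Slc43a2 was higher in CD49b+ than in CD4+ (0.52 ± 0.13) and CD25+ cells (0.62 ± 0.11), as was Slc7a6, which exchanges cationic for neutral amino acids (0.62 ± 0.13 and 0.55 ± 0.12). Slc43a3, a purine base carrier in human cells, was higher in CD49b+ (0.84 ± 0.09) and CD25+ cells (0.60 ± 0.09).

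Of 22 genes of amino acid response and mTORC1 sensing, 8 were higher and 5 lower in CD49b+ than in CD4+ cells (36.4% and 22.7%, all genes 29.9% and 23.5%). In CD25+ cells 6 and 3 were (27.3% and 13.6%, all genes 20.8% and 17.8%), so the list lay near the background. The serine synthesis enzyme Psat1 was higher in both, by 1.54 ± 0.18 in CD49b+ and 1.16 ± 0.18 in CD25+ cells. Rragd, a GTPase that recruits mTORC1 to lysosomes, read 6.78, 6.96 and 6.74 in CD25+ cells, against 4.76, 4.72 and 4.66 in CD49b+ cells and 4.79 and 4.79 in CD4+ cells of injected mice, so that CD25+ cells exceeded CD4+ cells by 2.04 ± 0.09 (adjusted p = 4.47e-07). The mTORC1 inhibitors Sesn1 (-1.20 ± 0.13) and Sesn3 (-1.08 ± 0.21) were lower in CD49b+ than in CD4+ cells and than in CD25+ cells (-1.36 ± 0.12 and -1.08 ± 0.19). Slc38a9, the lysosomal arginine sensor of mTORC1, had a difference of -0.48 ± 0.14 in CD49b+ from CD4+ cells (adjusted p = 0.0164).

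Monocarboxylate carriers moved in opposite directions within their family. Slc16a5 stood at 5.20, 5.12 and 5.21 in CD49b+ cells, 5.36, 5.25 and 5.21 in CD25+ cells, 6.79 and 7.02 in CD4+ cells of injected mice and 6.74 and 6.61 in those of naive mice. The subsets overlapped each other and lay below all 4 CD4+ arrays, with differences of -1.73 ± 0.09 in CD49b+ (adjusted p = 8.76e-07) and -1.63 ± 0.09 in CD25+ cells (adjusted p = 2.27e-06). Slc16a6 ran the other way, with 7.38, 7.28 and 7.29 in CD49b+ cells, 7.004, 6.69 and 6.98 in CD25+ cells, 5.74 and 5.92 in CD4+ cells of injected mice and 5.59 and 5.65 in those of naive mice. Its differences from CD4+ cells were 1.49 ± 0.11 in CD49b+ (adjusted p = 5.42e-06) and 1.06 ± 0.11 in CD25+ cells (adjusted p = 7.17e-05), and 0.43 ± 0.10 between the subsets (adjusted p = 0.00861).

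Slc16a1, the main lactate carrier of activated T cells, read 8.71, 8.84 and 8.76 in CD49b+ cells, 8.24, 8.66 and 8.31 in CD25+ cells, 7.55 and 8.17 in CD4+ cells of injected mice and 7.49 and 7.66 in those of naive mice. It was higher in CD49b+ cells (0.91 ± 0.18, adjusted p = 0.00208). The call in CD25+ cells (0.54 ± 0.18, adjusted p = 0.0359) was lost without CD4+ injected replicate 1 (0.23, adjusted p = 0.328) or CD25+ replicate 2 (adjusted p = 0.0963). Bsg, the chaperone that brings Slc16a1 to the surface, was higher in both subsets (1.07 ± 0.18 and 0.79 ± 0.18). Of 4 such subunits and chaperones tested, 4 were higher in CD49b+ than in CD4+ cells, and 3 were higher and 1 lower in CD25+ cells. The 1 lower was Emb (-0.48), whose other probe sets read between -1.92 and 0.16 in CD25+ cells. In CD49b+ cells the chosen probe set of Emb read 0.40, but another was called lower (-1.40, adjusted p = 0.0099), so that gene is uncertain.

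The class of sugar carriers other than the pair left out held 15 members. Of these, 4 were higher and 6 lower in CD49b+, and 2 and 6 in CD25+, than in CD4+ cells. Roles follow the family number, so the class also holds Slc5a7, a choline carrier that was lower in both subsets. It holds the iodide carrier Slc5a5 as well, which was not called among injected mice. Slc2a4, the insulin-responsive glucose carrier of muscle and fat, read 4.96, 5.15 and 4.88 in CD49b+ cells, between 4.92 and 5.06 in CD25+ cells, 5.92 and 6.08 in CD4+ cells of injected mice and 5.99 and 5.95 in those of naive mice. It was lower in both subsets (-1.01 ± 0.10 in each, adjusted p = 3.41e-05 and 5.73e-05). Slc37a3, of the sugar phosphate family, read 6.30, 5.61 and 6.18 in CD49b+ cells, 5.32, 5.08 and 5.54 in CD25+ cells and 4.85 and 4.80 in CD4+ cells, and was higher in CD49b+ than in CD4+ (1.21 ± 0.19, adjusted p = 0.00065) and CD25+ cells (0.72 ± 0.17, adjusted p = 0.0111). Slc37a4, which brings glucose 6-phosphate into the endoplasmic reticulum, and the intracellular hexose carrier Slc2a8 were also higher in CD49b+ than in CD25+ cells, by 0.53 ± 0.10 and 0.43 ± 0.09. The sign of the class median in CD49b+ against CD4+ cells was negative as deposited (-0.14) and positive once the arrays were centred (0.05).

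Of 18 carriers of inorganic ions, bicarbonate and protons, 5 were higher and 6 lower in CD49b+ than in CD4+ cells (27.8% and 33.3%, all genes 29.9% and 23.5%). In CD25+ cells 2 and 8 were (11.1% and 44.4%, all genes 20.8% and 17.8%). With centred arrays the counts in CD25+ cells were 6 and 5, and with quantile normalization 4 and 6. Of 5 Slc12 chloride carriers, 2 were higher and 1 lower in CD49b+, and 1 and 1 in CD25+ cells. Slc12a2, which brings sodium, potassium and chloride in, read 7.07, 6.87 and 7.09 in CD49b+ cells, 7.66, 7.69 and 7.38 in CD25+ cells, 6.46 and 6.53 in CD4+ cells of injected mice and 6.99 and 7.26 in those of naive mice. It was higher in CD25+ (1.08 ± 0.12, adjusted p = 0.000147) and CD49b+ cells (0.51 ± 0.12, adjusted p = 0.00689) than in CD4+ cells of injected mice, and lower in CD49b+ than in CD25+ cells (-0.57 ± 0.11). The naive CD4+ arrays reached the level of CD49b+ cells, and with the mean of its probe sets the call in CD49b+ cells was lost (0.26, adjusted p = 0.155). Slc12a7, which lets potassium and chloride out, read 8.42, 8.26 and 8.30 in CD49b+ cells, 8.74, 8.50 and 8.51 in CD25+ cells, 9.38 and 9.31 in CD4+ cells of injected mice and 9.48 and 9.31 in those of naive mice. It was lower in both subsets (-1.02 ± 0.10 and -0.76 ± 0.10), and its other probe set read -0.88 and -0.98. Slc12a4, another potassium-chloride exporter, was higher in CD49b+ cells (0.41 ± 0.10, adjusted p = 0.00581) and was not called in CD25+ cells (0.23 ± 0.10).

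Stk39, a kinase that switches on Slc12a2 and switches off its exporter relatives, was higher by 1.74 ± 0.10 in CD49b+ and 1.07 ± 0.10 in CD25+ cells, and of 7 genes of cell volume control 3 were higher and 0 lower in CD49b+ and 4 and 1 in CD25+ cells by limma. At an unadjusted p under 0.05, the counts in CD49b+ cells were 3 and 2. The sodium pump subunit Atp1b1, whose gradient drives many carriers, read 6.26, 6.65 and 6.50 in CD49b+ cells, 8.94, 8.88 and 8.73 in CD25+ cells and 9.83 and 9.74 in CD4+ cells of injected mice. Its difference from CD4+ cells was -3.31 ± 0.12 in CD49b+ (adjusted p = 7.27e-08) and -0.93 ± 0.12 in CD25+ cells (adjusted p = 0.000248). Of the 4 pump subunits tested, 1 was higher and 3 lower in CD49b+, and 0 and 3 in CD25+ cells by limma, with the same counts at an unadjusted p under 0.05. Slc9a9, a sodium-proton exchanger of endosomes, was higher in CD49b+ than in CD4+ (1.15 ± 0.10, adjusted p = 1.19e-05) and CD25+ cells (0.95 ± 0.09, adjusted p = 3.28e-05), while with the mean of its probe sets, of which the others are dim, its difference from CD4+ cells was 0.14 (adjusted p = 0.107). Slc8b1, the sodium-calcium exchanger of mitochondria, was higher in both CD49b+ (0.80 ± 0.11) and CD25+ cells (0.35 ± 0.11).

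CD25+ cells had 6 members that were higher than in both CD4+ and CD49b+ cells: Slc14a1, Slc22a5, Slc23a2, Slc6a13, Slc6a7 and Slc7a10. Slc14a1, the urea channel of red cells and kidney, stood at 8.21, 8.23 and 7.81 in CD25+ cells, 6.47, 6.28 and 6.17 in CD49b+ cells, 6.21 and 6.61 in CD4+ cells of injected mice and 6.95 and 7.19 in those of naive mice. The CD25+ arrays stood apart from all others, with a difference of 1.67 ± 0.16 from CD4+ cells of injected mice (3.19-fold, adjusted p = 5.66e-05), and CD49b+ cells were lower than CD25+ cells (-1.78 ± 0.15, adjusted p = 1.96e-05). Its other probe set read 1.35 and -1.49, both called. Erythroid markers had no call in this comparison (0 of 3 tested by limma, 0 also at an unadjusted p under 0.05).

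Slc22a5, the carnitine importer, read 9.09, 9.08 and 8.71 in CD25+ cells, 7.57, 7.70 and 7.55 in CD49b+ cells, 7.68 and 7.96 in CD4+ cells of injected mice and 7.67 and 7.78 in those of naive mice. CD25+ cells exceeded CD4+ cells of injected mice (1.14 ± 0.13, adjusted p = 0.000143), although its other, dimmer probe set read 0.01 there. CD49b+ cells were lower than CD25+ cells on both probe sets (-1.35 and -0.63). Slc7a10, for small neutral amino acids, read 7.32, 6.73 and 6.45 in CD25+ cells against 5.88 and 6.08 in injected CD4+ cells (0.85 ± 0.20, adjusted p = 0.00815). Slc6a7, a proline carrier, read 6.11, 6.14 and 5.32 in CD25+ cells against 4.44 and 4.59 in CD4+ cells (1.34 ± 0.21), and Slc6a13, a carrier of GABA and taurine, 5.29, 5.70 and 4.80 against 4.52 and 4.46 (0.77 ± 0.20). Slc6a7 and Slc6a13 entered the list through these CD25+ arrays, so their differences are a description. Slc23a2, the vitamin C importer, was higher by 0.61 ± 0.14 in CD25+ cells (adjusted p = 0.00884), but its other, dimmer probe set read -0.66 and was called lower.

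Among the carriers lower in both subsets than in CD4+ cells, Slc49a4 had the greatest difference in CD49b+ cells and Slc16a5 in CD25+ cells. Slc49a4, a lysosomal protein, read 6.22, 6.01 and 5.96 in CD49b+ cells, 6.92, 7.13 and 6.59 in CD25+ cells, 7.90 and 7.99 in CD4+ cells of injected mice and 7.39 and 7.31 in those of naive mice, with no overlap between the 4 groups. It was 3.69-fold lower in CD49b+ (-1.88 ± 0.14, adjusted p = 7.64e-06) and 2.09-fold lower in CD25+ cells (-1.06 ± 0.14, adjusted p = 0.00041). The phosphate importer Slc20a1 was lower in both (-0.50 and -0.55), calls that were lost without CD4+ injected replicate 2 (adjusted p = 0.0762 and 0.0708). The nucleoside carrier of lysosomes Slc29a3 was lower in both (-0.53 and -0.61), as was the thiamine importer Slc19a2 (-0.63 and -0.44). Slc28a2, a sodium-driven purine nucleoside importer, was lower in CD49b+ than in CD4+ (-0.61 ± 0.08, adjusted p = 0.000228) and CD25+ cells (-0.43 ± 0.07), and so was the folate carrier Slc19a1 against CD25+ cells (-0.50 ± 0.08). Slc29a1, the equilibrative nucleoside carrier of the surface, was not called.

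Lipid and organic ion carriers held more lower than higher calls in the deposited values. The shares lower in CD49b+ and CD25+ cells were 62.5% and 62.5% for lipids and 35.7% and 42.9% for organic ions. Over all genes they were 23.5% and 17.8%, and over all genes with a mean under 6 they were 36.7% and 33.2%. Of 8 carriers of lipids, bile acids and choline, 2 were higher and 5 lower in CD49b+, and 0 and 5 in CD25+, than in CD4+ cells by limma, with 1 higher in CD25+ cells at an unadjusted p under 0.05. The fatty acid carriers Slc27a1 (-0.48 and -0.41) and Slc27a4 (-0.31 and -0.33) were among those lower in both, and Slc10a7 was higher in CD49b+ cells (0.91 ± 0.13, adjusted p = 0.000347). Slc44a2, a choline carrier, was lower in CD49b+ than in CD25+ cells (-0.52 ± 0.08, adjusted p = 0.000861). Of 14 carriers of organic ions and urea, 1 was higher and 5 lower in CD49b+, and 3 and 6 in CD25+ cells, and the 1 higher in both was Slc22a15 (0.66 ± 0.13 and 0.87 ± 0.13). With the arrays centred, the lipid class stood at 2 and 2 in CD49b+ and 2 and 3 in CD25+ cells, and the organic ion class at 3 and 1 and at 4 and 2.

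In CD4+ cells of injected against naive mice, 0 members were called higher and 4 lower by limma, against 0.0272% and 1.36% of all genes. At an unadjusted p under 0.05, 8 were higher and 21 lower. With a 2-fold threshold 0 were higher and 1 lower (all genes 0% and 0.616%). Slc46a3, a lysosomal carrier, stood at 6.10 and 6.36 in injected and 7.30 and 7.78 in naive mice and was 2.48-fold lower in injected mice (-1.31 ± 0.14, adjusted p = 0.00336). CD49b+ (5.97, 6.02 and 5.97) and CD25+ cells (5.89, 5.93 and 5.90) stayed near CD4+ cells of injected mice.

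The other 3 were Slc33a1 (-0.90 ± 0.15, adjusted p = 0.0228), Slc25a24 (-0.69 ± 0.10, adjusted p = 0.0119) and Slc9a9 (-0.67 ± 0.10, adjusted p = 0.0152). Slc9a9 read 6.88 and 7.08 in injected and 7.55 and 7.75 in naive mice, and 8.19, 8.04 and 8.15 in CD49b+ cells. Since CD49b+ cells were set against the same 2 CD4+ injected arrays, the differences of these genes in that comparison are not independent of this one. Fitted on the 4 CD4+ arrays alone, none of the 4 genes was called, with adjusted p between 0.0803 and 0.111, and without CD4+ naive replicate 2 or CD4+ injected replicate 1 only Slc46a3 was. Myeloid and dendritic cell markers moved with these genes: 3 of 10 tested were lower in injected mice (Cybb, Itgax and Adgre1) and 0 higher. The summed level of the list was 9.64 to 9.85 in injected and 10.44 to 10.70 in naive mice, and the B cell gene Cd22 was lower (-1.02). Of the 13 myeloid and dendritic cell markers with a probe set, 9 lay above the array median on all arrays of each CD4+ group. Their part in the result was not tested.

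Slc43a3, Slc16a6 and Slc48a1 were the members most like Slc39a4 over the 10 arrays, with Pearson correlations of 0.9857, 0.9722 and 0.9711. These values describe arrays that share 4 groups and carry no test. Among other motifs searched in the 145 promoter windows, the E-box CACGTG was found in 13.1% of members against 6.05% of all promoters, the amino acid response core TGATGNAA in 2.07% against 3.53%, and the STAT5 core TTCNNNGAA in 7.59% against 7.18%, on both strands.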

How the data were processed

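RNA of sorted spleen T cells was measured on 10 mouse expression arrays. The authors deposited GCRMA values on a log2 scale, and the submitters' processing notes name Affymetrix Expression Console 1.2.1. The sources used here do not give whether the arrays were normalized jointly, so a level difference between groups can come partly from that step. The number of arrays limits the precision, and no depth applies.

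Genes were named from the platform annotation, and 544 solute carrier probe sets were matched by gene number to RefSeq, which changed 0 symbols. A further 11 with several symbols were left out. One fit in limma 3.58.1 (lmFit and eBayes, R 4.3.3) covered 11037 genes and all 4 groups, which left 6 residual degrees of freedom, and tests were two-sided. In data simulated for CD49b+ against CD4+ cells it recovered 88% of 200 genes changed by a log2 of 1 among 11037, with 7 unchanged genes called.

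Named genes are the 6 highest and 6 lowest called members with non-overlapping arrays in each comparison, known T cell carriers, the called member of each role with the greatest difference, members called in opposite directions, the edge of the rule, and up to 3 called genes of each partner and marker list. Other members of a family or pattern were named after their values were seen. The members, roles and lists were chosen with earlier results of these data known. Roles follow the family number of the symbol, so a class can hold genes that move something else. Same-numbered CD49b+ and CD25+ arrays deviated together (r = 0.158, 0.366 and 0.641), though CD49b+ replicate 1 matched CD25+ replicate 2 nearly as well (r = 0.135). The labels give replicate numbers and no pairing, and the main fit used none.

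Alternatives were no filter or a 70th percentile filter, quantile normalization, median centring, each gene's probe sets averaged, a trended robust prior, a replicate block, only the arrays compared, all 4 CD4+ arrays as comparator, brighter members and a 2-fold threshold, and each array left out. Promoters are RefSeq's, found for 145 of the 193 members.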

Additional observations from a re-analysis of the deposited data

Results flagged for a closer look

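In 4 members the 2 subsets were called in opposite directions against CD4+ cells of injected mice, and the difference between the subsets was itself called. Slc35d1 was lower in CD49b+ than in CD25+ cells by 1.88 (log2 difference -1.88), as on its other probe set, which however read higher than CD4+ cells in both subsets. Slc5a9, a sugar carrier, differed by -0.66, with 4.30, 4.26 and 4.38 in CD49b+ cells against 5.05, 5.04 and 4.82 in CD25+ cells. Its CD49b+ values and its mean in CD4+ cells of injected mice lay under the array medians, near background. The other probe sets of Slc5a9 were too dim to be tested (mean levels 4.14 and 3.63). Slc36a1, a lysosomal amino acid carrier, differed by 0.58, with 7.21, 7.10 and 7.32 in CD49b+ cells against 6.66, 6.73 and 6.52 in CD25+ cells. Slc25a45, a mitochondrial carrier, also differed by 0.58, with 8.39, 8.25 and 8.19 in CD49b+ cells against 7.66, 7.78 and 7.66 in CD25+ cells. The differences between the subsets kept their call under every alternative run. The opposite calls against CD4+ cells did not: with the arrays centred on their medians, none of the 4 kept them. With quantile normalization, Slc5a9, Slc36a1 and Slc25a45 lost their calls in CD49b+ cells. The opposite calls were also lost when either CD4+ injected array was left out, in fits that leave that group without a replicate.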

How the results depend on the processing

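Members called higher and lower in CD49b+ against CD4+ cells were 44 to 60 and 32 to 49 when each array was left out, for CD25+ over CD4+ cells 19 to 35 and 29 to 41, for CD49b+ over CD25+ cells 33 to 42 and 17 to 24, and for injected over naive CD4+ cells 0 and 1 to 3. Without CD4+ injected replicate 1 the CD25+ counts were 19 higher and 31 lower, without replicate 2 29 were lower, and without CD4+ naive replicate 2 or injected replicate 1 the injected mice had 1 lower. In CD49b+ and CD25+ against CD4+ cells, the lower counts were 20 and 17 with the 70th percentile filter, 20 and 19 among members with a mean of at least 6, chosen as an alternative after seeing the data, and 22 and 24 with centred arrays, which gave 67 higher in CD25+ cells. The 2-fold threshold, also added after seeing the data, left 11 and 6 for CD49b+ over CD4+ cells, 8 and 4 for CD25+ over CD4+ cells, 3 and 5 between the subsets and 0 and 1 in injected against naive mice. For injected against naive mice, 2 were lower with the mean of the probe sets and 0 with only the 4 arrays (9 higher and 23 lower at an unadjusted p under 0.05). The replicate block gave 4 higher and 7 lower there, where same-numbered arrays did not pair (r = -0.209), and crossed naive numbers, added after seeing the data, 5 and 11. Elsewhere the block gave 62 and 51, 37 and 48, and 48 and 26, and it ended the calls of Slc19a1 and Slc36a1 in CD49b+ and of Slc25a45 in CD25+ against CD4+ cells, and no other of a named member. With the mean of the probe sets, Slc1a5 (-0.05) and Slc35d1 (0.0668) changed sign in CD49b+ against CD4+ cells and were not called. Of the named members called, 22 of 37 for CD49b+ over CD4+ cells, 17 of 27 for CD25+ over CD4+ cells, 25 of 28 between the subsets and 0 of 4 in injected against naive mice kept their call under all alternatives. The causes were not tested. Values under the array medians, between 4.61 and 4.81, are near background and limit the folds of dim carriers.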
